A study of Mus musculus with 12 samples.

Results

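The genes described here encode the proteins of the mitochondrial ribosome (the mitoribosome) and carry the symbols Mrpl, for the large subunit, or Mrps, for the small subunit, followed by a digit. They were chosen by symbol alone from the 23996 gene rows of each of the deposited tables, with the condition that the FPKM was 1 or more in any of the 4 values. FPKM is the fragment count of a gene scaled for transcript length and library size. The choice gave 77 genes, 48 of the large and 29 of the small subunit. No candidate fell below the FPKM condition, and all 77 were tested by the authors in both tables.

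RNA came from Ly6Clow monocytes (labelled patrolling) and Ly6Chigh monocytes (labelled inflammatory) of C57Bl/6 mice. Mice were given muramyl dipeptide (MDP), a piece of bacterial cell wall that is sensed by NOD2, with 16 h in the sample titles, or placebo, with the word Naive and no time in the titles. The 4 groups were Ly6Clow MDP, Ly6Clow placebo, Ly6Chigh MDP and Ly6Chigh placebo, with 3 samples each, 12 in all. By its title, the study asked whether NOD2 signalling turns Ly6Chigh monocytes into Ly6Clow ones. No knockout or other allele is carried by these groups, and pooling of RNA from several animals is neither stated nor denied in the labels.

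Each subset has its own table, with 1 FPKM for the condition named q2 and 1 for the condition named q1, and none per sample. All FPKM, p and q below are the authors' values from these deposited tables. Neither the labels nor the files used here tie q2 or q1 to MDP or placebo, and the numbers q1 and q2 could stand for different treatments in the 2 subsets. Every difference is therefore given as q2 over q1. No SD can be printed, and the error of a difference enters only through the authors' own p and its adjusted form, q. A gene is called higher or lower where its test status is OK and q is under 0.05. The depth is unknown. In this bulk RNA, fewer cells of a type and less RNA per cell cannot be told apart.

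The mitoribosome translates the few proteins that are encoded by mitochondrial DNA, all of them subunits of the respiratory chain or of ATP synthase. Its RNAs are made inside the organelle, while its proteins are encoded in the nucleus, made in the cytosol and imported. About the bacterial core of ribosomal proteins it carries many proteins that bacteria lack. The small subunit reads the messenger RNA and holds the decoding centre. The large subunit joins the amino acids, and its exit tunnel opens at the inner membrane. Promoters of genes for mitochondrial proteins are known for binding sites of the ETS factor GABP (also called NRF2, nuclear respiratory factor 2), of NRF1 and of YY1.

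Promoter windows of 300 bases, from 250 before to 50 after the RefSeq start, were matched by symbol for 68 of the 77 genes. Sequences are from RefSeq, build GRCm38.p6. Of the 7 genes called higher in q2 in both tables, 5 had a window. Mrpl51 and Mrps18c are the genes among them whose window held the ETS word, so they are shown. Mrps11 is shown because its RefSeq start lies 42 bases from that of Mrpl46 on the other strand, head to head, so the window holds the starts of a small and a large subunit gene. In GENCODE M21 the starts of this pair are 412 bases apart and the genes overlap. Capitals mark the ETS word in the sequences of Mrpl51 and Mrps18c and the YY1 word in that of Mrps11. The windows are chr6:125191950-125192249 on the plus strand for Mrpl51, chr5:100798509-100798808 on the plus strand for Mrps18c and chr7:78782881-78783180 on the plus strand for Mrps11.
Mrpl51: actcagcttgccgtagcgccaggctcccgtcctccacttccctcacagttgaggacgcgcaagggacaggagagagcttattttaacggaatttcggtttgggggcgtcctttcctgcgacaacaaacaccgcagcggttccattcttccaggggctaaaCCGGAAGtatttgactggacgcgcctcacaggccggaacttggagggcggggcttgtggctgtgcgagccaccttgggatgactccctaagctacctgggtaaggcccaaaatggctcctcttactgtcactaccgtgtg
Mrps18c: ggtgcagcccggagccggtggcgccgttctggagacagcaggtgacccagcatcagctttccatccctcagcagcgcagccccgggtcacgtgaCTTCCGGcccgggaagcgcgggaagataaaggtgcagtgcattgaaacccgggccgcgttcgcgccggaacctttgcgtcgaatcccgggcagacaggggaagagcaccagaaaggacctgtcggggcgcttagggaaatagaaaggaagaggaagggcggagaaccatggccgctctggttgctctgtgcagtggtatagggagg
Mrps11: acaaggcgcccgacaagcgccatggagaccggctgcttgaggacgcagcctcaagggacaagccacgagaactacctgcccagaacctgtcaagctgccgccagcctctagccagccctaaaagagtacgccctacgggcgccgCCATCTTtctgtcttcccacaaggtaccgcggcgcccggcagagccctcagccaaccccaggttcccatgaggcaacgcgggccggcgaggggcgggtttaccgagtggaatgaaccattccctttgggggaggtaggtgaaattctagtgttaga
The marked words begin 90 bases before the start in Mrpl51, 156 in Mrps18c and 106 in Mrps11. In the windows of Mrps18c and Mrps11 the word stands on the minus strand, so the capitals spell its reverse complement.

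The 6 words were searched on both strands. The ETS word CCGGAAG was in 25 of the 68 windows (36.8%), against 9.93% of the windows of all 27025 genes and 21.8% of those of the 8274 genes with FPKM of 1 or more. The YY1 word AAGATGG was in 13 windows (19.1%), against 7.28% of all genes and 9.11% of genes with FPKM of 1 or more. The NRF1 word GCATGCG was in 8 windows (11.8%), against 4.01% and 7.60% of the same gene sets. The 3 other words were no more frequent than in genes with FPKM of 1 or more. CACGTG, the E-box, was in 7.35% of the windows against 12.2%, CCAAT in 39.7% against 42.9%, and TATAAA in 7.35% against 8.35%. The search allowed a position to count for several words. A match is a description of the letters and not a binding site. The ratios of genes with and without the words were set side by side, with no test. For the ETS word the median log2 ratio was 0.18 in Ly6Clow and 0.37 in Ly6Chigh monocytes, both with and without the word. For the YY1 word it was 0.18 with and 0.19 without the word in Ly6Clow monocytes, and 0.37 with and without it in Ly6Chigh monocytes. For the NRF1 word it was 0.16 with and 0.18 without the word in Ly6Clow monocytes, and 0.16 with and 0.41 without it in Ly6Chigh monocytes. Of the 8 genes with the NRF1 word 0 were called in either table. Of the genes with a window and without this word, 14 were called in Ly6Clow and 8 in Ly6Chigh monocytes. Since 14.2% and 7.07% of all tested genes were called higher, 0 of 8 is not read as a result. Calls in Ly6Clow and Ly6Chigh monocytes were 5 and 3 of 25 genes with the ETS word and 2 and 0 of 13 with YY1. They were 1 and 2 of 5 with the E-box, 5 and 4 of 27 with CCAAT and 0 and 0 of 5 with TATAAA.

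The RNA of both subsets carried the markers of its label. Summed over 8 Ly6Clow markers (such as Nr4a1, Itgal and Treml4), the FPKM was 3984 in q2 and 5591 in q1 of the Ly6Clow table, against 1022 and 1284 in the Ly6Chigh table. Summed over 7 Ly6Chigh markers (such as Ly6c2, Ccr2 and Chil3), it was 235 in q2 and 206 in q1 of the Ly6Clow table, against 3544 and 3921 in the Ly6Chigh table. Markers of other cells were present too. In Ly6Clow monocytes 6 of 9 B cell markers were called higher in q2, with summed FPKM of 295 in q2 and 212 in q1. In Ly6Chigh monocytes the B cell sum was 77.2 in q2 and 93.9 in q1, with 1 of 9 called higher. Of 8 neutrophil markers, 3 were called higher and 1 lower in Ly6Clow monocytes (sum 102 in q2, 153 in q1). Elane was at 0 in both and Camp at 0 in q2 there. In Ly6Chigh monocytes 2 were called higher and 1 lower (643 in q2, 338 in q1). Those called higher there were S100a8 (422 in q2, 62.9 in q1) and S100a9 (89.0 in q2, 28.3 in q1). Csf3r was called lower (85.1 in q2, 185 in q1), and Mmp8 was not called (41.9 in q2, 59.0 in q1). Ltf, Camp and Elane were at 1.28 or less in Ly6Chigh monocytes. Of 6 NK cell markers, 2 were called higher in Ly6Clow monocytes (26.1 in q2, 15.2 in q1) and 1 lower in Ly6Chigh monocytes (2.39 in q2, 6.16 in q1). Of 7 T cell markers, 1 was called lower in Ly6Clow monocytes (6.25 in q2, 6.75 in q1) and 0 were called in Ly6Chigh monocytes (3.57 in q2, 5.86 in q1). Of 7 erythroid and platelet markers, 2 were called higher in Ly6Clow monocytes (1068 in q2, 916 in q1) and 2 lower in Ly6Chigh monocytes (506 in q2, 588 in q1). Their part in the results on mitoribosomal genes was not tested.

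Mitoribosomal genes were expressed at all levels within a 76.8-fold range. By the geometric mean over the 4 values, the median gene was at 24.3 FPKM, 49 genes lay between 10 and 50 FPKM, 13 above and 15 below. The highest were Mrpl33 at 335 FPKM, Mrps21 at 196, Mrpl52 at 111, Mrps18c at 89.8 and Mrps16 at 84.6. The lowest were Mrpl17 at 4.36 FPKM, Mrpl19 at 4.98 and Mrpl35 at 5.03. Mrpl33, a small protein of the central protuberance, had 246 FPKM in q2 and 252 in q1 of the Ly6Clow table and 424 in q2 and 480 in q1 of the Ly6Chigh table. Mrpl17, at the exit tunnel of the same subunit, had 4.37 in q2 and 3.60 in q1 of the Ly6Clow table and 4.95 in q2 and 4.66 in q1 of the Ly6Chigh table. Neither of these extremes was called in either table.

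In Ly6Clow monocytes, 16 of the 77 genes were called higher in q2 and 0 were called lower. The 16 are 20.8% of the genes, where 14.2% of all 12042 tested genes were called higher and 12.2% lower. The count of genes called higher is thus not far above the background, while the lack of genes called lower and the shared direction are the broader pattern. A total of 67 of 77 genes (87.0%) had a higher FPKM in q2, against 49.5% of all tested genes. The median log2 ratio was 0.18, against −0.00 for all tested genes, and single genes ran from −0.19 (Mrps12, not called) to 0.76 (Mrps6). By the p of the authors' deposited table before adjustment, 28 were higher at under 0.05 and 0 lower, with 19.0% and 17.0% of all tested genes on those sides. With q under 0.01 there were 10 (10.1% of all tested genes), and with a log2 ratio of 1 or more added to the call 0 (3.27%).

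In Ly6Chigh monocytes, 10 of the 77 genes were called higher in q2 and 0 lower, where 7.07% of all 11626 tested genes were called higher and 7.54% lower. A total of 71 of 77 genes (92.2%) had a higher FPKM in q2, against 50.5% of all tested genes. The median log2 ratio was 0.37, against 0.00 for all tested genes. Single genes ran from −0.26 (Mrpl30, not called) to 1.25 (Mrps28). By the p of the authors' deposited table before adjustment, 27 were higher at under 0.05 and 0 lower, with 12.6% and 12.7% of all tested genes on those sides. With q under 0.01 there were 4 (4.17% of all tested genes), and with a log2 ratio of 1 or more added to the call 1 (3.13%). Ratios were larger here than in Ly6Clow monocytes while fewer genes were called: 6 genes that were not called had a log2 ratio above 0.57, the smallest among those called, and the highest of them was 0.67 (Mrps11). In Ly6Clow monocytes the smallest called log2 ratio was 0.34, and 0 genes above it were left uncalled.

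**Figure D1:**
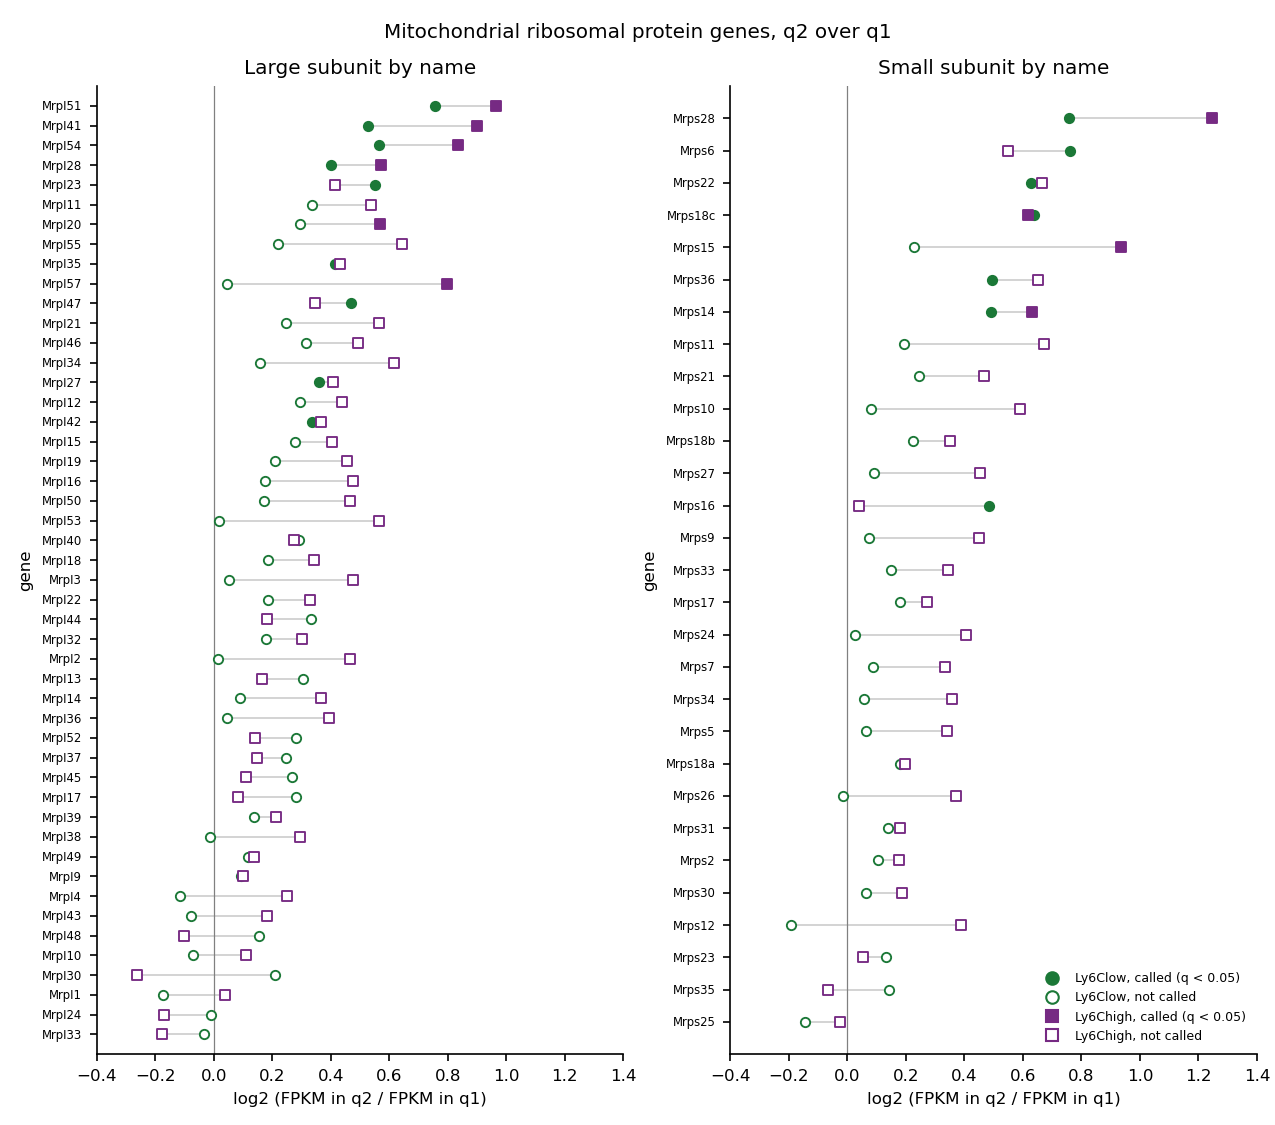
Log2 ratio of FPKM in q2 over q1 (x axis) for each of the 48 large subunit genes (left) and 29 small subunit genes (right), in Ly6Clow (circles) and Ly6Chigh monocytes (squares); filled symbols are genes called by the authors' q and grey lines join the values of a gene. Most symbols lie right of 0, no gene left of 0 is filled, and squares lie right of circles for 59 of the 77 genes.

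Both tables called 7 genes higher in q2: Mrps28, Mrpl51, Mrpl41, Mrpl54, Mrps18c, Mrps14 and Mrpl28. They are 43.8% of the genes called in Ly6Clow and 70% of those called in Ly6Chigh monocytes. They are 9.09% of the 77 genes, where 4.77% of 11401 genes tested in both tables were called higher in both. The sample titles carry the same replicate numbers in both subsets, and no label says whether the subsets came from different mice, so the tables are not shown to be independent.

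Mrps28, a small subunit protein (chr3:8802146-8923857), had the largest ratio in Ly6Chigh monocytes. It was at 21.2 FPKM in q2 and 12.6 in q1 of Ly6Clow monocytes, and at 35.3 in q2 and 14.9 in q1 of Ly6Chigh monocytes. The q2 level was thus 1.69-fold and 2.37-fold the q1 level, with q of 0.000418 and 0.000859 in the authors' deposited table of each subset. Mrps28 alone passed a log2 ratio of 1, and only in Ly6Chigh monocytes.

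Mrpl51 (chr6:125192200-125194392), a large subunit protein that bacteria lack, was at 20.6 FPKM in q2 and 12.2 in q1 of Ly6Clow monocytes. It was at 27.4 in q2 and 14.1 in q1 of Ly6Chigh monocytes. The ratios were 1.69-fold and 1.95-fold, again with the smallest q of each of the authors' deposited tables, 0.000418 and 0.000859. Ncapd2, which encodes a condensin subunit, starts 100 bases from Mrpl51 on the other strand and was called higher in both tables as well. It was at 5.82 FPKM in q2 and 4.03 in q1 of Ly6Clow monocytes and at 3.26 in q2 and 1.21 in q1 of Ly6Chigh monocytes.

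Mrpl54 (chr10:81264722-81266926) and Mrpl41 (chr2:24962422-24975098) encode other large subunit proteins that bacteria lack. Mrpl54 was at 56.8 FPKM in q2 and 38.4 in q1 of Ly6Clow monocytes (1.48-fold, q = 0.000418 in the authors' deposited table). It was at 92.1 in q2 and 51.6 in q1 of Ly6Chigh monocytes (1.79-fold, q = 0.00348 in the authors' deposited table). Mrpl41 was at 5.82 FPKM in q2 and 4.04 in q1 of Ly6Clow monocytes (1.44-fold, q = 0.0215 in the authors' deposited table). It was at 8.85 in q2 and 4.74 in q1 of Ly6Chigh monocytes (1.87-fold, q = 0.0177 in the authors' deposited table).

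Mrps18c (chr5:100798759-100804467) is among 3 mammalian relatives of the bacterial small subunit protein S18. It was at 101 FPKM in q2 and 64.7 in q1 of Ly6Clow monocytes, and at 124 in q2 and 80.7 in q1 of Ly6Chigh monocytes. Its ratio was nearly equal in the subsets, at log2 0.64 and 0.62, with q of 0.000418 and 0.0404 in the authors' deposited tables. Its relatives Mrps18a and Mrps18b, with log2 ratios of 0.18 and 0.22 in Ly6Clow and 0.20 and 0.35 in Ly6Chigh monocytes, were not called.

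Mrps14 (chr1:160195260-160201186), of the small subunit head, was at 18.4 FPKM in q2 and 13.1 in q1 of Ly6Clow monocytes and at 27.5 in q2 and 17.7 in q1 of Ly6Chigh monocytes. Its q was 0.00114 and 0.0209 in the authors' deposited tables. Mrpl28 (chr17:26123503-26126613), which has a bacterial counterpart, was at 33.3 FPKM in q2 and 25.2 in q1 of Ly6Clow monocytes and at 53.6 in q2 and 36.1 in q1 of Ly6Chigh monocytes. Its q was 0.00651 in the authors' deposited table for Ly6Clow monocytes and 0.0479, close to the threshold, in that for Ly6Chigh monocytes.

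**Figure D2:**
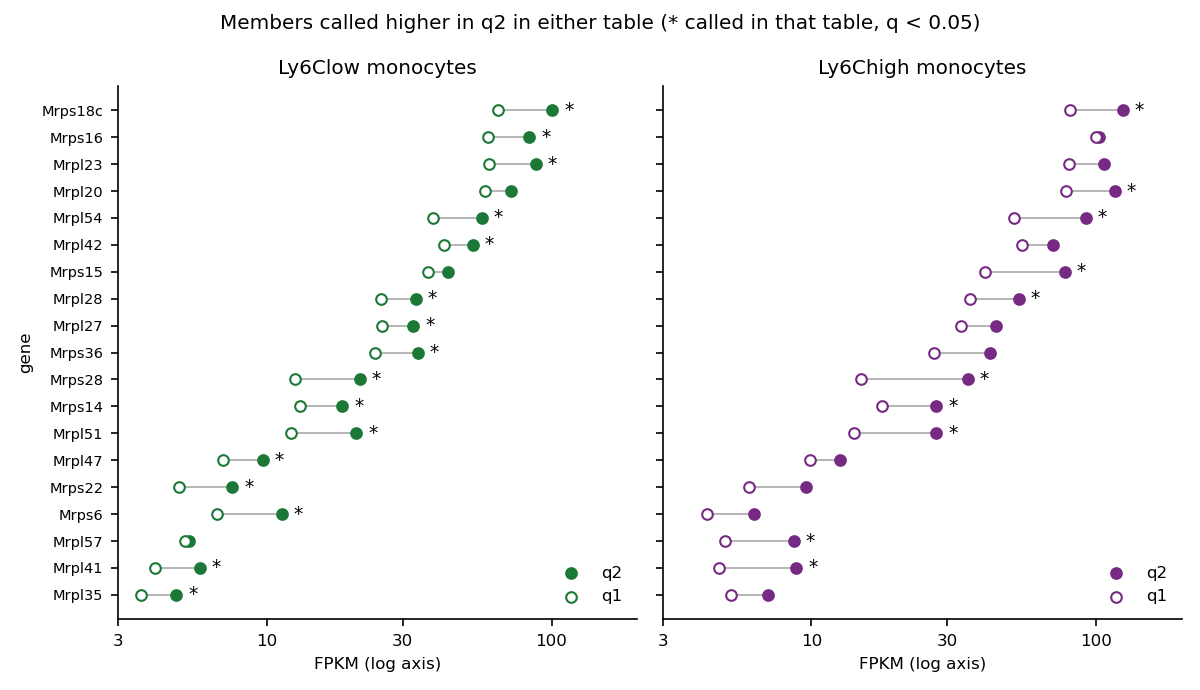
FPKM (x axis, log scale) in q2 (filled) and q1 (open) of the 19 genes called higher in either table, for Ly6Clow (left) and Ly6Chigh monocytes (right), sorted by level; asterisks mark the table in which a gene was called and each point is the authors' single value per condition. The 19 genes shown run from Mrpl35 and Mrpl41 near the bottom to Mrps18c at the top. Mrpl33, Mrps21 and Mrpl52, of higher level, and Mrpl17 and Mrpl19, of lower level, were called in neither table and are not shown.

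A further 9 genes were called higher in Ly6Clow monocytes alone: Mrps6, Mrps22, Mrpl23, Mrps36, Mrps16, Mrpl47, Mrpl35, Mrpl27 and Mrpl42. Of all tested genes, 14.2% were called higher in Ly6Clow monocytes, and 4.77% of those tested in both tables were called higher in both. The count of 9 is therefore not read as a result. A call in 1 table does not show that the subsets differ. Mrps22, which has no bacterial counterpart, had nearly the same ratio in both, with 7.58 FPKM in q2 and 4.91 in q1 of Ly6Clow monocytes and 9.56 in q2 and 6.02 in q1 of Ly6Chigh monocytes. Its q was 0.00522 and 0.0956 in the authors' deposited tables. Mrps36 had q of 0.00467 in Ly6Clow and 0.0509 in Ly6Chigh monocytes in the authors' deposited tables, with log2 ratios of 0.49 and 0.65. Mrps36 was named as a small subunit protein and has since been placed with the 2-oxoglutarate dehydrogenase complex of the citric acid cycle.

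Mrps6, of the small subunit, had log2 ratios of 0.76 in Ly6Clow and 0.55 in Ly6Chigh monocytes, and its locus holds the transporter gene Slc5a3. Mrpl23, a protein at the exit tunnel, was at 88.3 FPKM in q2 and 60.2 in q1 of Ly6Clow monocytes (q = 0.000418 in the authors' deposited table). It was at 107 in q2 and 79.9 in q1 of Ly6Chigh monocytes, where it was not called. Annotated pseudogenes that carry the symbol of a member exist for Mrpl23, Mrpl48 and Mrps36, and those under other names are not listed here. No source used here says how reads were shared among such copies, so the values of these genes are uncertain. Genes at the edge of the threshold were Mrpl27 and Mrpl47, called with q of 0.0481 and 0.0491, and Mrpl11, not called with q of 0.0522, in the authors' deposited table for Ly6Clow monocytes.

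A total of 3 genes were called higher in Ly6Chigh monocytes and not in Ly6Clow monocytes: Mrps15, Mrpl57 and Mrpl20. Of all tested genes, 7.07% were called higher in Ly6Chigh monocytes, and 4.77% of those tested in both tables were called higher in both. The count of 3 is therefore not read as a result. Mrps15, of the small subunit, was at 43.3 FPKM in q2 and 36.9 in q1 of Ly6Clow monocytes, against 77.4 in q2 and 40.5 in q1 of Ly6Chigh monocytes. Its q in Ly6Chigh monocytes, 0.000859, is the smallest of the authors' deposited table. Mrpl57, a large subunit protein that bacteria lack, was at 5.35 FPKM in q2 and 5.18 in q1 of Ly6Clow monocytes, against 8.65 in q2 and 4.98 in q1 of Ly6Chigh monocytes. Its levels in q1 were thus near each other, and the q2 levels were apart. Mrpl20 was at 71.9 FPKM in q2 and 58.5 in q1 of Ly6Clow monocytes and at 116 in q2 and 78.5 in q1 of Ly6Chigh monocytes. Its bacterial counterpart is among the first proteins to bind during assembly of the large subunit. Mrps11 missed the call in Ly6Chigh monocytes at q = 0.0501 in the authors' deposited table, with 21.3 FPKM in q2 and 13.3 in q1. Its neighbour Mrpl46 on the other strand was at 22.8 in q2 and 16.2 in q1.

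The log2 ratio was smaller in Ly6Clow than in Ly6Chigh monocytes for 59 of the 77 genes (76.6%), against 51.0% of the 11375 genes with a ratio in both. The median difference was −0.16 over the 77 genes, −0.16 over large and −0.16 over small subunit genes, against −0.01 over all genes. With 1 value per condition the difference between subsets has no test. Ratios of all tested genes were also wider in Ly6Chigh monocytes, with quartiles at −0.28 and 0.29, against −0.22 and 0.23 in Ly6Clow monocytes. The part of this spread in the difference was not tested. Differences in the direction of Ly6Chigh monocytes were largest for Mrpl57 (−0.75), Mrps15 (−0.71), Mrps12 (−0.58) and Mrpl53 (−0.55). Mrps12, a protein of the decoding centre, was at 19.9 FPKM in q2 and 22.7 in q1 of Ly6Clow monocytes and at 30.6 in q2 and 23.4 in q1 of Ly6Chigh monocytes, and was called in neither.

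Differences in the direction of Ly6Clow monocytes were largest for Mrpl30 (0.47), Mrps16 (0.44), Mrpl48 (0.26) and Mrps6 (0.21). Mrps16, a small subunit protein with a bacterial counterpart, was at 83.6 FPKM in q2 and 59.8 in q1 of Ly6Clow monocytes and was called (q = 0.00211 in the authors' deposited table). In Ly6Chigh monocytes it was at 103 in q2 and 99.9 in q1. Mrpl30 was at 58.1 in q2 and 50.2 in q1 of Ly6Clow monocytes and at 99.4 in q2 and 119 in q1 of Ly6Chigh monocytes, and was not called. Ratios were above 0 in both tables for 64 genes, in 1 table for 10 and in neither for Mrpl24, Mrpl33 and Mrps25. Across the 77 genes, which are not independent replicates, Spearman's rho between the ratios of the subsets was 0.41 and Pearson's r 0.51, against 0.57 and 0.45 across all genes. Log2 ratios of all tested genes ran from −63.5 to 179 in Ly6Chigh monocytes, so Pearson's r across all genes may rest on a few extreme genes. The points share the transcript length of each gene, and the subsets may share mice.

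**Figure D3:**
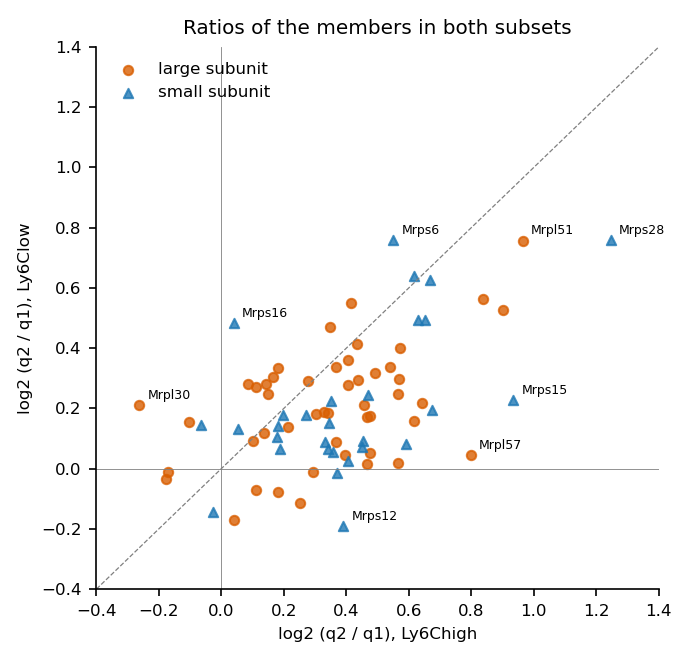
Log2 ratio of FPKM in q2 over q1 in Ly6Clow (y axis) against Ly6Chigh monocytes (x axis) for 48 large (circles) and 29 small subunit genes (triangles); the dashed line marks equal ratios. Of 77 points, 59 lie below the line, and Mrps28 and Mrpl51 stand apart at the upper right.

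The level itself was lower in Ly6Clow than in Ly6Chigh monocytes for most genes. In q2 this held for 72 of 77 genes, with a median log2 difference of −0.41, against −0.00 for all genes. In q1 it held for 63 of 77, with a median of −0.23, against 0.02 for all genes. The median FPKM was 23.5 in q2 and 21.1 in q1 of Ly6Clow monocytes, and 30.6 in q2 and 23.4 in q1 of Ly6Chigh monocytes. The tables may have been normalized apart, and the comparison of levels across them has no test.

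The medians of large and small subunit genes were close. In Ly6Clow monocytes the median log2 ratio was 0.21 for large and 0.14 for small subunit genes, with 9 of 48 and 7 of 29 called higher. In Ly6Chigh monocytes it was 0.37 for both, with 6 of 48 and 4 of 29 called higher. Of all tested genes, 14.2% in Ly6Clow and 7.07% in Ly6Chigh monocytes were called higher. The sign of the difference between the subunits turned with the summary used: by means it was −0.01 in Ly6Clow monocytes, where by medians it was 0.07. Counting Mrps30 and Mrps18a, which sit in the large subunit in spite of their names, as large, and leaving out Mrps36, gave medians of 0.20 for large and 0.14 for small subunit genes in Ly6Clow monocytes and of 0.36 and 0.38 in Ly6Chigh monocytes.

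In every structural group the median log2 ratio was above 0 in both tables. The counts called higher stand beside 14.2% of all tested genes in Ly6Clow and 7.07% in Ly6Chigh monocytes, and nothing particular to a group is read from them. Of 16 small subunit proteins with a bacterial counterpart, 5 were called higher in Ly6Clow and 4 in Ly6Chigh monocytes, with median log2 ratios of 0.19 and 0.46. These include Mrps28, Mrps18c and Mrps14. Of the 13 other small subunit genes, 2 were called in Ly6Clow monocytes, Mrps22 and Mrps36, and 0 in Ly6Chigh monocytes, with medians of 0.14 and 0.34. Of 30 large subunit proteins with a bacterial counterpart, 5 and 2 were called, with medians of 0.20 and 0.40. Of the 18 other large subunit genes, 4 were called in each table, with medians of 0.26 and 0.29. The 4 genes of the stalk, where translation factors bind (Mrpl10, Mrpl11, Mrpl12 and Mrpl53), were called in neither table, with medians of 0.16 and 0.49. Of 10 genes of the central protuberance, the knob of the large subunit that faces the small one, 2 were called in Ly6Clow monocytes (Mrpl27 and Mrpl35) and 0 in Ly6Chigh monocytes, with medians of 0.25 and 0.32. Of 6 genes at the exit tunnel, 2 were called in Ly6Clow monocytes (Mrpl23 and Mrpl47) and 0 in Ly6Chigh monocytes, with medians of 0.28 and 0.22. Of 6 subunits that carry other gene names, leaving out Mrpl57, only Dap3, a small subunit protein that binds GTP, was called, in Ly6Clow monocytes at 11.3 FPKM in q2 and 9.24 in q1. The medians of these 6 were 0.24 and 0.19.

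The genes that build and serve the mitoribosome were described in the same way, and their counts are to be read against the 14.2% called higher and 12.2% called lower of all tested genes in Ly6Clow monocytes and the 7.07% and 7.54% in Ly6Chigh monocytes. In lists of 9 to 20 genes, a gap of 1 or 2 calls from those shares is not read as a result. Of 20 assembly factors, Mpv17l2 was called higher (32.3 FPKM in q2, 23.6 in q1) and Ddx28, an RNA helicase of large subunit assembly, lower (14.1 in q2, 18.3 in q1) in Ly6Clow monocytes, and 0 were called in Ly6Chigh monocytes. The medians were 0.06 in Ly6Clow and 0.13 in Ly6Chigh monocytes. Of 14 translation factors, which include the elongation factor gene Tufm, 0 were called in either table, with medians of 0.09 and 0.18. Of 20 tRNA synthetases and partners, Nars2 was called higher in Ly6Clow monocytes, at the low level of 0.876 FPKM in q2 and 0.412 in q1. In Ly6Chigh monocytes Qrsl1, which serves the charging of glutamine tRNA, was called higher (1.64-fold). Lars2, the leucyl-tRNA synthetase, was called lower there (53.6 in q2, 112 in q1). The medians of this list were 0.11 in Ly6Clow and 0.23 in Ly6Chigh monocytes. Of 9 genes that transcribe or maintain mitochondrial DNA, among them Polrmt and Tfam, 0 were called, with medians of −0.07 and 0.00.

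Among 7 regulators of mitochondrial biogenesis with FPKM of 1 or more, Myc, a transcription factor of growth, was called higher in both tables. It was at 4.38 FPKM in q2 and 2.43 in q1 of Ly6Clow monocytes and at 11.2 in q2 and 2.50 in q1 of Ly6Chigh monocytes. Pprc1, a coactivator of the PGC-1 family, was called higher in Ly6Clow monocytes (8.53 in q2, 6.50 in q1). Gabpa, Gabpb1, Nrf1, Yy1 and Esrra were called in neither table. The family relatives Ppargc1a and Ppargc1b were below 1 FPKM. The median log2 ratio of the 7 regulators was −0.12 in Ly6Clow and 0.22 in Ly6Chigh monocytes. Ratios were above 0 for 2 of them in Ly6Clow and 5 in Ly6Chigh monocytes. With 14.2% and 7.07% of all tested genes called higher, and 4.77% in both tables, these calls are not read as a result about the regulators.

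The medians of mitoribosomal genes, 0.18 in Ly6Clow and 0.37 in Ly6Chigh monocytes, lay between those of 2 other families. Of 88 nuclear genes with symbols of the respiratory chain or ATP synthase, 43 were called higher and 2 lower in Ly6Clow monocytes. Their median log2 ratio there was 0.35. In Ly6Chigh monocytes 31 were called higher and 2 lower, with a median of 0.43. Of 83 genes for proteins of the cytosolic ribosome, 4 were called higher and 2 lower in Ly6Clow monocytes (median 0.02), and 6 higher and 1 lower in Ly6Chigh monocytes (median −0.02). These counts stand beside 14.2% called higher and 12.2% lower of all tested genes in Ly6Clow monocytes. In Ly6Chigh monocytes the shares of all tested genes were 7.07% and 7.54%. FPKM was above that of q1 in q2 for 67 mitoribosomal, 82 respiratory chain and 47 cytosolic ribosomal genes in Ly6Clow monocytes, and for 71, 79 and 39 in Ly6Chigh monocytes. No test of the difference between the families was made, since genes are not replicates.

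**Figure D4:**
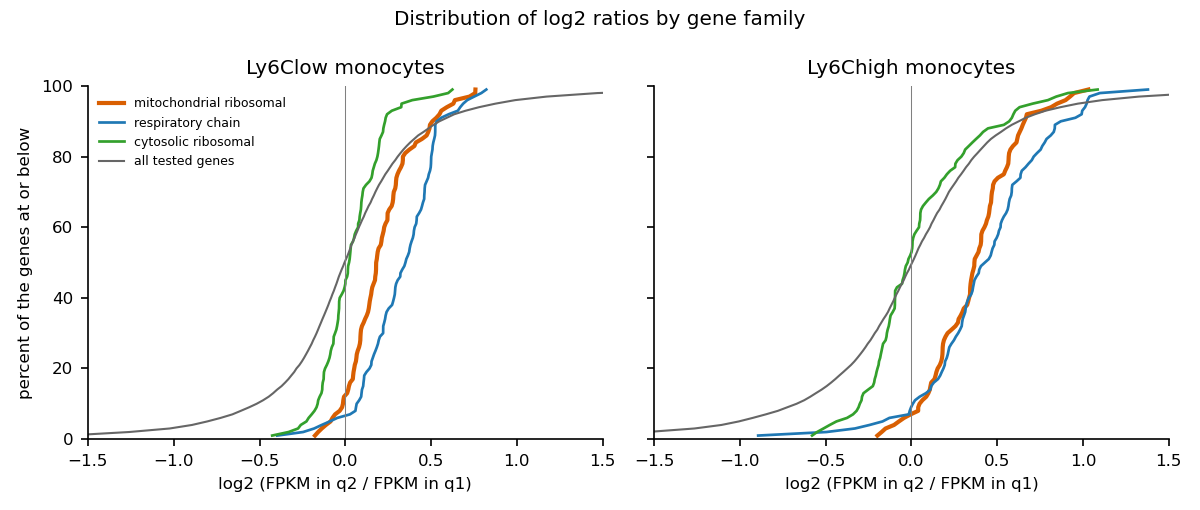
Percent of genes at or below each log2 ratio of FPKM in q2 over q1 (x axis), for 77 mitochondrial ribosomal, 88 respiratory chain and 83 cytosolic ribosomal genes and for all tested genes, in Ly6Clow (left) and Ly6Chigh monocytes (right). The mitochondrial ribosomal curve crosses 50 percent at 0.18 and 0.37, right of the cytosolic ribosomal and all-gene curves, which cross near 0.

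Mitoribosomal genes are short, and short genes had higher ratios. The median length of their longest coding transcript was 1316 bases, against 3032 for all tested genes in Ly6Clow and 3026 in Ly6Chigh monocytes. The 36 mitoribosomal genes in the shortest length decile had a median log2 ratio of 0.23 in Ly6Clow and 0.47 in Ly6Chigh monocytes, against 0.15 and 0.16 for all tested genes of that decile. The 59 cytosolic ribosomal genes in it were at 0.03 and 0.00. Relative to the median of all genes of the same length decile, the median of the 77 genes was 0.095 in Ly6Clow and 0.25 in Ly6Chigh monocytes. Across the 77 genes Spearman's rho between length and log2 ratio was −0.19 and −0.37, a description across genes that share libraries. Signs of RNA quality cannot be read from these tables, so their part in the ratios was not tested.

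**Figure D5:**
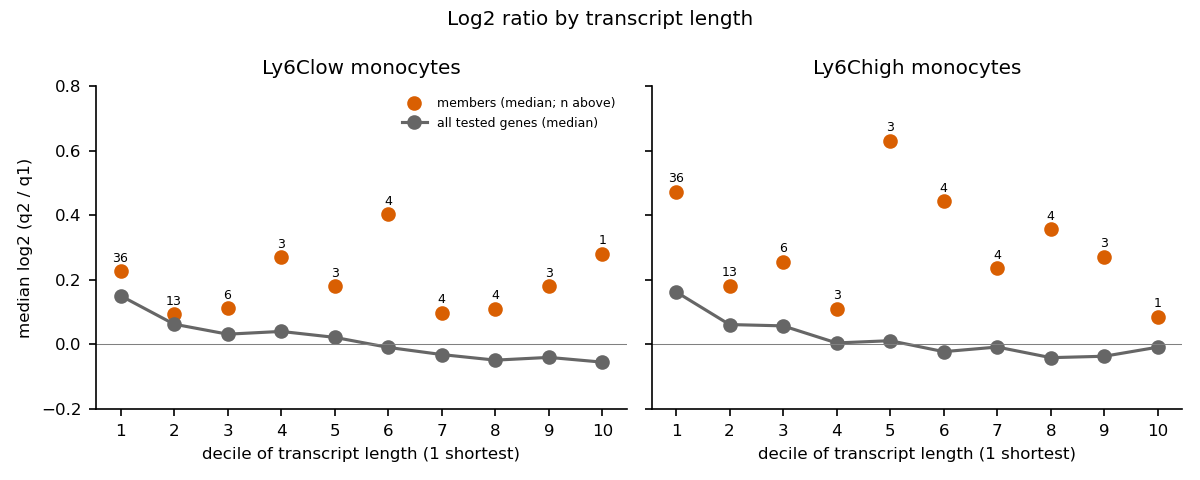
Median log2 ratio of FPKM in q2 over q1 (y axis) by decile of transcript length (x axis, 1 shortest), for mitoribosomal genes (orange, with their number above each point) and all tested genes (grey), in Ly6Clow (left) and Ly6Chigh monocytes (right). The 36 genes in the shortest decile stand at 0.23 and 0.47, against 0.15 and 0.16 for all genes there; the other deciles hold 13 or fewer mitoribosomal genes each.

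Mitoribosomal genes often start close to a gene on the other strand, and sharing of a promoter was not tested. A start of another protein-coding gene on the opposite strand within 500 bases was annotated for 25 of the 77 genes (32.5%), against 14.8% of 10362 protein-coding genes tested in both tables. Counts of partners are to be read against 14.2% called higher and 12.2% lower of all tested genes in Ly6Clow monocytes. In Ly6Chigh monocytes these shares were 7.07% and 7.54%. A gap of 1 or 2 calls from those shares is not read as a result. Of the 23 partners outside the family, 22 were tested in Ly6Clow monocytes, with 3 called higher (Ncapd2, Psma2 and Ndufs6) and 1 lower (Fau). The mitoribosomal genes of these pairs had a median log2 ratio of 0.20, against −0.04 for their partners. In Ly6Chigh monocytes 21 partners were tested, with 2 called higher (Ncapd2 and Apba3) and 0 lower. The mitoribosomal genes of these pairs had a median of 0.36, against 0.07 for their partners. The partner of Mrpl54, Apba3, which starts 26 bases away, was called higher in Ly6Chigh monocytes with Mrpl54 (17.4 FPKM in q2, 9.99 in q1). It was not called in Ly6Clow monocytes (10.3 in q2, 10.6 in q1). Helq, a DNA helicase gene that starts 29 bases from Mrps18c, was called in neither table, with log2 ratios of −0.09 and 0.44. No source used here says whether counting used strand, so reads of overlapping neighbours cannot be told apart. The loci of 6 genes hold another protein-coding gene: Mrpl19, Mrpl48, Mrpl49, Mrpl53, Mrps6 and Mrps23. Of these, Mrps6 in Ly6Clow monocytes was the only one called.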

How the data were processed

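Per the submitters' processing notes, the authors used Trimmomatic 0.33, TopHat2 2.0.14, Bowtie2 2.2.5, Cufflinks 2.21 and Cuffdiff 2.21 and the mm10 build, with no settings given. TRI Reagent was used for extraction and the TruSeq protocol for libraries, per the labels' protocols. The deposited levels are 1 per condition and subset. The file headers name no unit for them; they are taken as FPKM, since the column names are those of Cuffdiff, the tool in the submitters' processing notes. The authors' test gave the deposited p-value and, after adjustment, the q-value, per the file headers. A table was tied to its subset by its name. Some cells of the deposited log2 ratios hold no number, so log2 ratios were computed from FPKM with no pseudocount. No SD, leaving out of replicates or depth could be had from these values, and 3 samples a group may be technical or biological replicates.

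The plan compared MDP with placebo. Since neither q2 nor q1 is tied to a treatment, q2 over q1 is given. Members and gene lists were chosen with earlier results of these data known. Genes were named by a rule: the called genes with the largest ratios, those called in both tables, the highest and lowest levels, and the largest differences between subsets. Mrps11, Mrpl46, Mrps18a, Mrps18b, Mrpl11, Mrpl24, Mrps25, the neighbours on the other strand and the remaining called genes were named after their values were seen. The cytosolic ribosomal family was taken by symbol, leaving out S6 kinases, whose symbols start alike. The respiratory chain family was taken by symbols that start with Nduf, Sdh, Uqcr, Cox4 to Cox8 or Atp5. Assembly factors with such symbols were not left out. Loci are the authors', which count from 0, with 1 added to the start: among 42 plus-strand genes with a promoter window, the start so shifted equals the RefSeq start in 26. Lengths, neighbours and pseudogenes came from GENCODE M21. The computations used Python 3.11.15, pandas 2.3.3 and numpy 2.4.6. Only the counts and medians of gene groups were tested on simulated data, with answers set beforehand. Alternatives were other thresholds, FPKM filters, a pseudocount, means, centring, subunit assignment, transcript length and shared loci.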

Additional observations from a re-analysis of the deposited data

How the results depend on the processing

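In all, 59 alternatives were computed, and 47 left the direction and size as reported (medians within 0.05 on the log2 scale, counts within 1.5 times). Genes called higher numbered 16 in Ly6Clow and 10 in Ly6Chigh monocytes. With q under 0.01 they were 10 and 4, with an unadjusted p under 0.05 they were 28 and 27, and with an added log2 ratio of at least 1 they were 0 and 1. No gene was called lower under any of these. Centred on genes of the same transcript length decile, an alternative chosen after seeing the data, the median log2 ratio was 0.095 in place of 0.18 in Ly6Clow and 0.25 in place of 0.37 in Ly6Chigh monocytes; the cause was not tested. The large minus small subunit difference is near 0 and turned sign with the summary. In Ly6Clow monocytes it was 0.07 by medians and −0.0086 by means. In Ly6Chigh monocytes it was −0.0032 by medians, 0.0017 with 1 added to each FPKM, −0.061 by means and −0.067 within length deciles. The median difference between the subsets stayed between −0.17 and −0.15. No paired analysis was possible because the tables hold 1 value per condition and none per sample, and for the same reason leaving out replicates was not run. Depth is unknown, and levels of FPKM near 5 rest on the authors' test alone.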
